A study of Mus musculus with 24 samples.

Results

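The motile cilia genes described here are 48 genes of the ciliated airway cell, taken by listed symbol and matched to the count table by Ensembl identifier. All 48 were found among the 78275 genes of the table, Dnai1 and Dnai2 under the older symbols Dnaic1 and Dnaic2. By role they are 4 regulators of the ciliated state, 5 outer dynein arm chains, 7 inner arm heavy chains, 3 radial spoke head proteins, 9 central apparatus proteins, 9 ruler, nexin link and inner arm docking proteins, 6 proteins inside the doublet microtubules and 5 other ciliated cell genes.

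Whole lungs of male C57BL/6 mice aged 20 weeks were profiled by strand-specific sequencing of poly(A) RNA in 24 libraries, 3 in each of 8 groups. All mice share the C57BL/6 genotype. Healthy controls are called C, and healthy mice conditioned on the left leg (3 cycles of 5 min ischemia and 5 min reperfusion on 3 days a week for 4 weeks) are called RIC. DE mice breathed diesel exhaust for 30 min a day on 5 days a week over about 8 weeks, which the submitters use as a model of lung fibrosis. DE+PFD mice were exposed likewise and took the antifibrotic drug pirfenidone orally (300 mg/kg/day in 0.5% carboxymethylcellulose, on 6 days a week). RIC+DE mice were conditioned ahead of the exposure and DE+RIC mice in the course of it. The same 2 schedules plus pirfenidone make the groups RIC+DE+PFD (ahead) and DE+PFD+RIC (in the course). Vehicle alone is named for none of the groups. The study asks whether conditioning, alone or with the drug, alters the exhaust-exposed lung.

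Motile cilia are hair-like extensions of airway epithelial cells whose beating moves mucus out of the lung. Each holds an axoneme, a ring of doublet microtubules around a central pair. Dynein arms on the doublets use ATP to slide them, nexin links turn sliding into bending, and radial spokes with the central apparatus set the beat. Defects in many of these genes cause primary ciliary dyskinesia, and Foxj1 is the transcription factor best known for switching the set on.

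Total counts ran from 3906807 to 18494156 per library. The labels give each library a batch date without saying what was done on it: 9 libraries carry the March date, 14 the October date and 1 the November date. March libraries are the first of C, RIC, DE+PFD and RIC+DE+PFD, all 3 of RIC+DE, and the first and second of DE+PFD+RIC. The November library is the third of DE+RIC, and the remaining ones, among them all 3 DE libraries, are from October, so RIC+DE and DE share no batch. In what follows each group's 3 values stand in the order of replicates 1 to 3, and CPM is the count scaled to a common library size (TMM). One library stood apart: in RIC+DE+PFD 1 the ribosomal protein genes lay 2.05 log2 units above their mean, and genes of at least 12 kb of exon lay 1.07 below theirs. The labels do not say that the libraries of a group come from separate mice, so p-values measure the spread between these libraries, which may be technical.

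Transcripts of all 48 genes were detected in lung. 47 of them had at least 10 counts in every library, and all 48 passed edgeR's filter on low counts. The exception, Mcidas, a regulator that starts the multiciliated programme, had 0 counts in DE 3, where 3 counts would make 0.526 CPM, and at most 1.28 CPM elsewhere. Summed over the 48 genes the level was 1459.6 CPM in DE 1, the lowest library, and 3317.9 CPM in RIC+DE+PFD 1, the highest, where Tppp3 alone made 1974.1 CPM. As a share of all counts, before TMM scaling, the 48 genes held 0.211% in that library, and the highest share was 0.246% in DE+PFD+RIC 2. On the mean of log2 deviations given below, which weights genes equally, RIC+DE+PFD 1 was the lowest library.

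Per kb of exon, the scale on which genes can be compared, mean levels over the 24 libraries spanned 0.203 to 341 CPM per kb. Tppp3, a tubulin-binding protein widely used as a ciliated cell marker, led at 341 CPM per kb. Dynlrb2, a light chain of the transport dyneins, followed at 85.5 CPM per kb, Tmem212, a membrane protein marker, at 65.6, Ccdc153 at 56.9 and Foxj1 at 53.7. The dynein heavy chains were far lower, from 4.04 CPM per kb for Dnah6 to 0.537 for Dnah7a. Dnah7a has close relatives in the mouse genome, Dnah7b and Dnah7c, so reads may be split among them and its level is uncertain. The ciliated markers Foxj1, Ccdc153, Tmem212, Sntn, Tppp3, Dynlrb2, Rsph1 and Cfap126 were thus all present in the tissue the labels name.

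Regulatory factors of the RFX family, of which Rfx3 is a member, bind a motif called the X-box, so the sequence ahead of each gene's start was read from RefSeq (build GRCm38.p6). A 300-base window, from 250 bases before the start to 50 after it, was found for 40 of the 48 genes. One arm of that motif, the 6 letters GTTGCC on either strand (GGCAAC on the reverse), occurred in 18 of the 40 windows (45%), against 14.1% of the 27025 genes with a window. The full X-box palindrome was searched only as GTTNCC and GGNAAC with a spacer of 2 or 3 bases, N being any base. In that form it was in 0 of the 40 and in 0.596% of all genes. Looser forms of the full motif were not searched. TGTTTAC, a forkhead core of the kind Foxj1's family binds, was in 3 of 40 (7.5%) and in 4.05% of all genes. A match is a string of letters, not a bound site. The 4 stretches below are the 150 bases that end just before the start, read along the gene and with this arm in capitals. They are shown because they come from 4 different parts of the axoneme, and because Spag16 and Tekt1 hold the arm in both orientations and Cfap44 holds 2 copies in the same one.
Spag16, chr1:69826820-69826969, plus strand: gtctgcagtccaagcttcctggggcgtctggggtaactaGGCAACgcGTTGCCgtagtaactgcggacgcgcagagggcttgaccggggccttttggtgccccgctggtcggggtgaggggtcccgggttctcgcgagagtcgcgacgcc
Dnai2, chr11:114727269-114727418, plus strand: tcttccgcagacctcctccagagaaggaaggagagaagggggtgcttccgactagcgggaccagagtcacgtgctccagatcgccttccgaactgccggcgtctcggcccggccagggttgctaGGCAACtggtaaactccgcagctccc
Cfap44, chr16:44394649-44394798, plus strand: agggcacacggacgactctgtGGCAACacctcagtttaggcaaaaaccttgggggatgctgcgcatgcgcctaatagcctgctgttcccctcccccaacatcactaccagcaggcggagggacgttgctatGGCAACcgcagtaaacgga
Tekt1, chr11:72361883-72362032, minus strand: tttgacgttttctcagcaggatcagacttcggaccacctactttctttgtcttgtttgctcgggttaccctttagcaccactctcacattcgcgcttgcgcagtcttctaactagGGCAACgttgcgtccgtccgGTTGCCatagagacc

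No motile cilia gene passed the test in any of the 10 comparisons. The test was edgeR's quasi-likelihood test, with batch date and treatment group in the model, fitted on 17490 genes with Benjamini-Hochberg adjustment and a threshold of 0.05. In each comparison 0 of the 48 members and 0% of all genes were called, in either direction. The test over all 8 groups at once also called 0 of 48 members and 0% of genes. At an unadjusted p under 0.05 it held 8 members, among 14.4% of all genes: Rfx3, Rsph1, Rsph9, Ccdc153, Cfap126, Tppp3, Dynlrb2 and Tmem212. That number was 1 without RIC+DE+PFD 1 and 1 with the length trend over all genes removed. The share of all genes at that p is not given for those 2 fits. DESeq2 called 0 members in the 10 comparisons, and over all groups it called 2, Rsph1 (adjusted p = 0.0398) and Rsph9 (adjusted p = 0.0146), where it called 2.6% of 41268 genes. With edgeR and no filter on low counts 10 members were called over all groups, against 6.75% of 41345 genes. The genes of these last 2 fits include many with low counts, whereas all 48 members pass the filter. The members and such shares are therefore not like for like, and the share among genes past the filter is not given. The standard error of a member's log2 fold change had a median of 0.32 to 0.38 between single groups. Changes of that size, and also larger ones, could go uncalled with 3 libraries a group. In RIC+DE minus DE the members' log2 fold changes ran from -1.08 to 1.34, with a lowest adjusted p of 0.274 by edgeR.

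At an unadjusted p under 0.05 the members stood as follows, each beside the share of all genes. There were 0 in DE minus C (3.33% of all genes), 0 in RIC minus C (1.2%), 0 in DE+PFD minus DE (2.84%) and 1 in DE+RIC minus DE (3.23%). RIC+DE minus DE had 9 (17.3%), RIC+DE+PFD minus DE had 2 (9.52%) and DE+PFD+RIC minus DE had 3 (9.23%). The contrasts averaged over groups had 0 each, beside 3.02% for exposure, 4.3% for pirfenidone and 6.7% for conditioning. The 9 in RIC+DE minus DE were Dnah2, Cfap46, Cfap65 and Cfap44 above 0 and Ccno, Rsph1, Cfap126, Tekt1 and Tekt4 below.

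These numbers moved when single libraries were left out. The share of all genes at that p is not given for these fits, so the shifts cannot be read as particular to the members. In RIC+DE minus DE the number was 3 without RIC+DE 1 or without RIC+DE+PFD 1, and 15 without RIC 1 or without DE+PFD+RIC 2. With the length trend removed it was 3. In DE+PFD+RIC minus DE it was 10 without that group's replicate 1 and 0 without its replicate 2. In RIC+DE+PFD minus DE it lay between 1, without DE 3, and 7, without DE 2. Without DE 2 there were 8 members in DE+PFD minus DE, 4 in DE+RIC minus DE, 2 in DE minus C and 3 in the pirfenidone contrast. The exposure contrast reached 4 without RIC+DE+PFD 1 and the conditioning contrast 4 without DE 1, while RIC minus C had 0 whichever library was left out.

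The list level varied within groups, with a pooled SD of 0.25, as well as between them. This level is the mean over the 48 genes of log2 CPM minus the gene's own mean over 24 libraries. The C libraries had 0.21, -0.31 and -0.05, the RIC libraries 0.23, -0.24 and -0.24, and the DE libraries -0.49, 0.09 and -0.31. With 1 treatment added, DE+PFD had 0.28, 0.10 and 0.09, RIC+DE had 0.34, -0.09 and 0.28, and DE+RIC had 0.07, 0.08 and 0.07. For combined treatments it was -0.52, 0.03 and -0.05 in RIC+DE+PFD and 0.01, 0.51 and -0.10 in DE+PFD+RIC. The order of group means, with SD over 3 libraries, was RIC+DE at 0.18 ± 0.23, DE+PFD at 0.16 ± 0.11, DE+PFD+RIC at 0.14 ± 0.33, DE+RIC at 0.07 ± 0.00, C at -0.05 ± 0.26, RIC at -0.08 ± 0.27, RIC+DE+PFD at -0.18 ± 0.30 and DE at -0.24 ± 0.29. Each step between neighbours in that order was smaller than the SD of at least one of the pair. The ends of the order, RIC+DE and DE, which share no batch, lay further apart than the SD of either. In whole lung a lower level can mean fewer ciliated cells or less RNA per cell, which cannot be told apart.

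**Figure D1:**
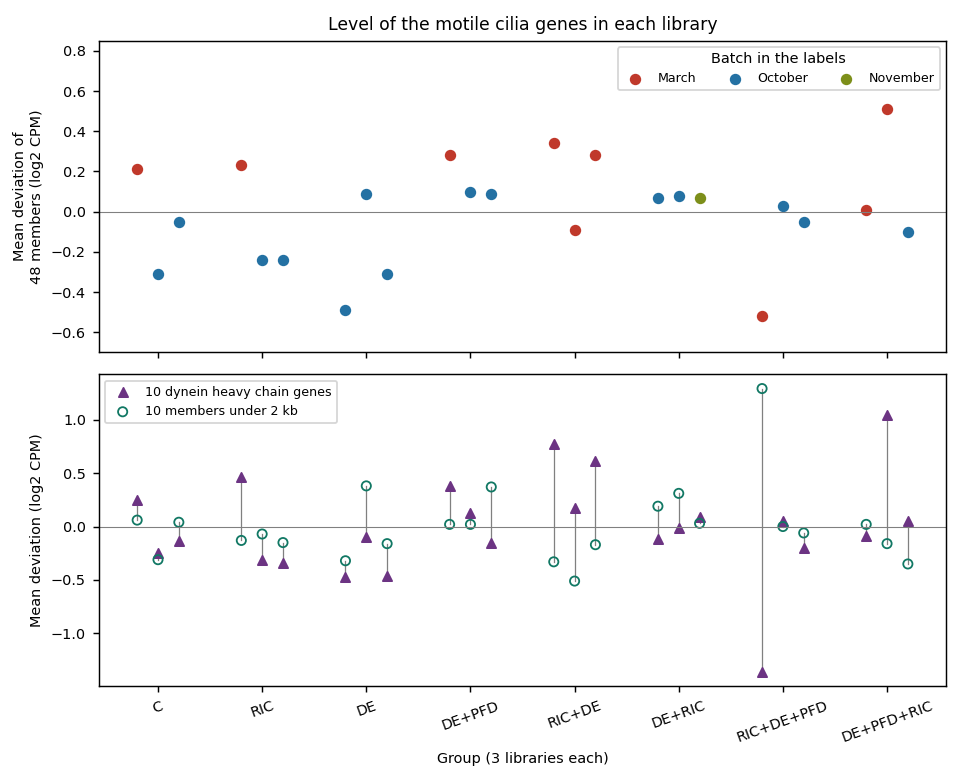
Level of the motile cilia genes in the 24 libraries, grouped by treatment and coloured by batch date. Upper panel: mean deviation in log2 CPM of the 48 genes, one point per library, from -0.52 in RIC+DE+PFD 1 to 0.51 in DE+PFD+RIC 2. Lower panel: the same for the 10 dynein heavy chain genes (triangles) and the 10 members under 2 kb of exon (circles), joined by a line per library; the pair lies furthest apart in RIC+DE+PFD 1.

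Diesel exhaust against healthy lungs gave small differences with no common direction across roles. In DE minus C 17 of the 48 genes had a log2 fold change above 0, and the median was -0.11, where the median over all genes was 0. The 9 central apparatus genes had a median of -0.24 with 0 above 0, and the 7 inner arm heavy chains a median of -0.27 with 2 above 0. All 6 doublet lumen genes lay above 0, at a median of 0.18. Without DE 1, in which only 1 of the 48 genes was above its own mean, the list median was 0.04, and without DE 2 it was -0.31. The cartilage list, 8 of 11 cartilage genes being tested, summed to 63.1 CPM in DE 1 against 5.37 and 9.84 CPM in DE 2 and DE 3, with none of the 8 at 0 counts in these libraries; its part in the difference was not tested.

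The 3 smallest p-values in DE minus C belonged to Cfap61, of the calmodulin and spoke-associated complex at the spoke base, at a log2 fold change of -0.45 ± 0.25 (SE), to the spoke head gene Rsph1 at 0.39 ± 0.24 and to Ccno, a cyclin-like protein of centriole amplification, at 0.38 ± 0.30. Their adjusted p by edgeR was 0.988 in each case. In 4 genes, Dnah2, Cfap46, Cfap65 and Cfap61, all 3 DE libraries were below all 3 C libraries, where 6.88% of all genes were so placed. In 0 members were all 3 DE libraries above, against 7.6% of all genes.

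Conditioned healthy mice differed little from controls in the median of the set. In RIC minus C 22 of 48 genes lay above 0 with a median of -0.01, beside 0 over all genes. Cfap46, a central apparatus protein, had a log2 fold change of 0.48 ± 0.38, Cfap54, of the same complex, -0.35 ± 0.32, and Mcidas -0.91 ± 0.84, all with an adjusted p of 1 by edgeR. Mcidas had only 133 counts over all libraries. Ccdc153 and Cfap61 were below C in every RIC library, the 2 members so placed, against 2.67% of all genes, and 0 members were above, against 2.24%.

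Each treated group was set against the same 3 DE libraries, so the 5 comparisons share them and a low or high DE library enters all 5. The median log2 fold change of the 48 genes was 0.31 for DE+PFD, 0.22 for RIC+DE, 0.26 for DE+RIC, 0.04 for RIC+DE+PFD and 0.29 for DE+PFD+RIC. All-gene medians were -0.01, 0, 0.01, 0.04 and -0.01 in that order. When DE 1 was left out the members' medians were 0.18, 0.10, 0.13, -0.14 and 0.15, and when DE 2 was left out they were 0.49, 0.35, 0.49, 0.22 and 0.45.

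**Figure D2:**
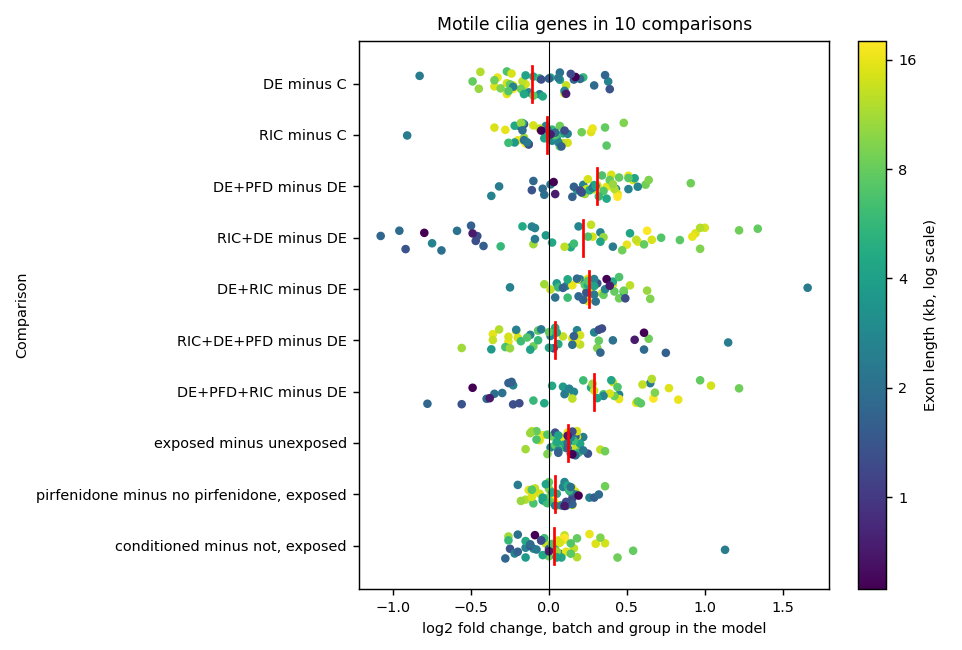
Log2 fold change of each of the 48 motile cilia genes in 10 comparisons, from the model with batch and group. Each point is a gene coloured by exon length (log scale), and the red bar is the median of the 48, from -0.11 in DE minus C to 0.31 in DE+PFD minus DE. In RIC+DE minus DE the long genes lie to the right and the short genes to the left.

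With pirfenidone on top of exhaust most members had higher values, none of them past the test. In DE+PFD minus DE 42 of 48 genes lay above 0. The 9 central apparatus genes (median 0.44), the 7 inner arm heavy chains (0.42), the 5 outer arm chains (0.37) and the 9 ruler and link genes (0.35) lay above 0 in every member. The 4 regulators had a median of -0.05. The smallest p-values belonged to Drc1, a nexin link subunit, at 0.57 ± 0.27, the central apparatus gene Cfap70 at 0.55 ± 0.27 and Spag17 at 0.62 ± 0.35, each with an adjusted p of 1 by edgeR. In 13 members the 3 DE+PFD libraries were all above the 3 DE libraries, against 5.9% of all genes, and in 0 members all were below, against 5.28%. Those 13 were Dnai1, Dnah1, Dnah2, Dnah3, Dnah10, Hydin, Spag17, Cfap46, Cfap65, Cfap69, Cfap70, Drc1 and Cfap44. One DE+PFD library is from March and none of DE is; among October libraries alone the list median was again 0.31.

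With conditioning in the course of the exposure nearly every member had a value of the same sign, none past the test. In DE+RIC minus DE 46 of 48 genes lay above 0, with role medians from 0.09 for the regulators to 0.42 for the central apparatus. DE+RIC 3 is the only November library, so the batch term takes it up wholly. Fold changes and p-values of this group in the model with batch thus rest on DE+RIC 1 and 2, also in the contrasts averaged over groups. Cfap61 had a log2 fold change of 0.63 ± 0.27, Mcidas 1.66 ± 0.94 and Cfap70 0.48 ± 0.29, each with an adjusted p of 1 by edgeR. The Mcidas value rests on few counts, at 0.548, 0.149 and 0 CPM in DE. All 3 libraries lay above DE in 8 members (6.31% of all genes): Dnai2, Dnah2, Dnah3, Spag16, Spag17, Cfap46, Cfap65 and Cfap70. All 3 lay below in 0 members (6.03% of all genes). The list level of the 3 DE+RIC libraries, 0.07 to 0.08, lay inside the range of the 3 DE libraries, -0.49 to 0.09. Cartilage genes differed in the same comparison: 0 of 8 lay above 0 and 4 had an unadjusted p under 0.05. They summed to 4.22 to 6.01 CPM in DE+RIC, with 3 or 4 of the 8 at 0 counts in each library, Acan, Cnmd and Col9a2 among them, and to 5.37 to 63.1 CPM in DE. Basal epithelial genes had 6 of 9 below 0 and a median of -1.27, with summed levels of 533 to 682 CPM in DE+RIC and 568 to 674 CPM in DE. The median weights the 9 genes equally, whereas the sum follows the abundant ones. Of the 9, Krt14 had 0 counts in DE 3, and none had 0 in the DE+RIC libraries. The part of these genes in the result was not tested.

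With conditioning ahead of the exposure the members were split along exon length as well as role, and genes outside the list were split by length too. The 10 dynein heavy chains had a median of 0.56, beside 0.43 over all genes at least as long. The 10 members under 2 kb of exon had -0.60, beside -0.53 over all genes under 2 kb. In RIC+DE minus DE 29 of 48 genes lay above 0. The 7 inner arm heavy chains were all above 0 at a median of 0.92 and 8 of 9 central apparatus genes were, at 0.61. None of the 6 doublet lumen genes (median -0.41) nor of the 3 spoke head genes (-0.42) was. Rsph1 had a log2 fold change of -0.92 ± 0.28, Cfap126, a doublet-associated protein also called Flattop, -1.08 ± 0.41, and Cfap65, a central apparatus protein, 1.34 ± 0.53, each with an adjusted p of 0.274 by edgeR. The 3 RIC+DE libraries all lay above DE in 15 members, 6 of them heavy chains, against 21% of all genes, and all below in 2, Cfap126 and Tppp3, against 20.6%. With edgeR and no filter on low counts 6 members passed, Dnah3, Dnah12, Cfap46, Cfap65 and Cfap44 above 0 and Cfap126 below, where 2.73% of the unfiltered genes did. That share includes genes with low counts, which the members are not. Since RIC+DE is all March and DE all October, conditioning and batch rest here on the batch term estimated from other groups, and the list median was -0.01 without RIC+DE+PFD 1, a March library of another group.

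Markers of other tissues also differed between these libraries, and their part in the result was not tested. Skeletal muscle genes, 5 of 7 tested, with none at 0 counts in RIC+DE and Acta1 at 0 in DE 2, summed to 1816.4, 26.3 and 983 CPM in RIC+DE and to 47.5, 27.8 and 29.9 CPM in DE. Cartilage genes summed to 161 CPM in RIC+DE 1 and to 5.88 and 6.05 CPM in the other 2, with Acan and Cnmd at 0 counts in RIC+DE 2 and Acan in RIC+DE 3. Club and secretory genes summed to 25785.4 to 32129.6 CPM in RIC+DE and 39294.5 to 66696.8 CPM in DE. The sum is weighted to abundant genes, and gene by gene the list was mixed. Of its 15 genes 6 lay above 0 and 9 below, from -1.39 to 1.54 with a median of -0.18. At an unadjusted p under 0.05 there were 1 above and 3 below. Alveolar type 2 genes, all 11 with counts in every library, summed to 16275.9 to 30740.5 CPM in RIC+DE and 36034.6 to 49933.1 CPM in DE, and 10 of the 11 lay below 0 with a median of -0.77, 5 of them at an unadjusted p under 0.05.

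Of the 2 combined treatments, the one with early conditioning had the smaller median against DE, at 0.04, with its replicate 1 standing apart. The list level of the RIC+DE+PFD libraries was -0.52, 0.03 and -0.05, beside -0.49, 0.09 and -0.31 in DE. In RIC+DE+PFD minus DE 26 of 48 genes lay above 0, and the median was below 0 without DE 1 (-0.14), DE 3 (-0.01), RIC+DE+PFD 2 (-0.15) or RIC+DE+PFD 3 (-0.08). Rsph9, a spoke head protein, had a log2 fold change of 0.75 ± 0.25 with an adjusted p of 0.398, the factor Rfx3 -0.56 ± 0.22 with 0.46, and Tmem212 0.55 ± 0.31 with 0.549, by edgeR. Rsph9 was above DE in all 3 libraries, the 1 member so placed (5.56% of all genes), and Rfx3 below in all 3, the 1 member so placed (6.41% of all genes). For Tmem212 the value was -0.03 when RIC+DE+PFD 1, DE 1 and RIC+DE 1 were left out together, a choice made after the values were seen.

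In DE+PFD+RIC minus DE 34 of 48 genes lay above 0, with the 7 inner arm heavy chains at a median of 0.66 and the 6 doublet lumen genes at -0.18. Dnah3 had a log2 fold change of 1.04 ± 0.45, Cfap44, a tether of the inner arm heads, 1.22 ± 0.53 and Rsph1 -0.56 ± 0.26, each with an adjusted p of 0.526 by edgeR. All 3 libraries lay above DE in 7 members, against 15.4% of all genes, and below in 0, against 12.8%. The 7 were Rfx3, Dnah2, Dnah3, Dnah10, Hydin, Cfap54 and Cfap44. Without the filter on low counts edgeR called 3 members, Dnah3, Cfap65 and Cfap44, and 0.74% of the unfiltered genes, those with low counts included. Among October libraries alone, where this group has 1, the list median was 0.02.

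The factors of the design were also averaged over groups. The 6 exposed groups minus C and RIC had a median of 0.12 with 39 of 48 genes above 0, led by Rsph1 at 0.25 ± 0.14, Dnah1 at 0.33 ± 0.21 and Cfap52, a doublet lumen protein, at 0.22 ± 0.14, with an adjusted p of 1 by edgeR. The sign of that median is opposite to the -0.11 of DE minus C, where 17 of 48 lay above 0. The 3 exposed groups with pirfenidone minus the 3 without had a median of 0.04, led by Rsph9 at 0.29 ± 0.15, Foxj1 at 0.26 ± 0.17 and Tppp3 at 0.32 ± 0.23, with an adjusted p of 0.956. For Tppp3 the value was -0.02 without the 3 libraries named above. The 4 conditioned exposed groups minus the other 2 had a median of 0.03, led by Cfap65 at 0.54 ± 0.29 and Rfx3 at -0.26 ± 0.14, with an adjusted p of 0.795, and by Mcidas at 1.13 ± 0.62, with 0.796. The value of Mcidas rests on few counts, 133 over all libraries.

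Among the regulators, Foxj1 is the master transcription factor of motile cilia and Ccno, beside Mcidas, acts in making the many centrioles that anchor them. Foxj1 read 157, 126 and 120 CPM in the C libraries, 148, 99.8 and 148 in the RIC libraries and 95.1, 140 and 137 with exhaust alone (DE). In the groups with 1 added treatment Foxj1 read 149, 133 and 164 CPM with DE+PFD, 124, 114 and 141 with RIC+DE and 146, 138 and 122 with DE+RIC. Foxj1 read 89.7, 201 and 140 CPM with RIC+DE+PFD and 261, 174 and 114 with DE+PFD+RIC. Foxj1 was lowest in RIC+DE+PFD 1 and highest in DE+PFD+RIC 1, both March libraries of pirfenidone groups, and C, RIC and DE overlapped. Ccno stood at 3.53, 2.18 and 3.35 CPM in the C libraries, 2.54, 3.21 and 2.61 in the RIC libraries and 2.41, 4.93 and 4.04 with exhaust alone (DE). With 1 treatment added, Ccno stood at 3.03, 2.94 and 3.15 CPM with DE+PFD, 2.26, 2.34 and 3.05 with RIC+DE and 3.25, 3.07 and 2.44 with DE+RIC. Ccno stood at 4.37, 3.09 and 3.46 CPM with RIC+DE+PFD and 4.66, 3.08 and 2.88 with DE+PFD+RIC. Ccno was low throughout, with its highest value in DE 2 and its lowest in C 2. Rfx3, a winged-helix factor acting with Foxj1, ranged from 6.17 CPM in RIC+DE+PFD 1 to 15.7 CPM in DE+PFD 1, and its 3 RIC+DE+PFD values, 6.17, 6.46 and 8.42 CPM, lay below those of every other library. Mean levels of Rfx3 were 7.01 ± 1.23 CPM in RIC+DE+PFD and 9.64 ± 1.27 CPM in DE (SD, n = 3).

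In the outer dynein arm, Dnai1 and Dnai2 are the intermediate chains that hold the complex together, and Dnah5, a motor heavy chain of that arm, is added as an example chosen after its values were seen. Dnai1 measured 12.9, 13.4 and 15.1 CPM in the C libraries, 16, 12.1 and 13.8 in the RIC libraries and 11.1, 13.7 and 12.8 with exhaust alone (DE). For singly treated lungs Dnai1 measured 15.6, 19 and 16.9 CPM with DE+PFD, 16, 12 and 16.1 with RIC+DE and 16.7, 10.1 and 15.6 with DE+RIC. Dnai1 measured 10.9, 12.2 and 15 CPM with RIC+DE+PFD and 12.7, 19.3 and 10.7 with DE+PFD+RIC. The 3 DE+PFD values of Dnai1 were above the 3 DE values, and the C, RIC and DE groups overlapped. Dnai2 read 22.1, 16.2 and 19.6 CPM in the C libraries, 25.9, 17.8 and 17.8 in the RIC libraries and 16.6, 23.4 and 16.5 with exhaust alone (DE). Under 1 treatment Dnai2 read 25.3, 22.5 and 27 CPM with DE+PFD, 22.8, 17.6 and 27.3 with RIC+DE and 25.1, 24.9 and 26.7 with DE+RIC. Dnai2 read 11.2, 23.6 and 24.9 CPM with RIC+DE+PFD and 24.6, 29.5 and 18 with DE+PFD+RIC. The 3 DE+RIC values of Dnai2 were close together and above all DE values. Dnah5 stood at 54.6, 24.8 and 29 CPM in the C libraries, 40, 24.5 and 23.4 in the RIC libraries and 17.7, 34.8 and 24.8 with exhaust alone (DE). In the groups with 1 added treatment Dnah5 stood at 54.9, 27.6 and 32.3 CPM with DE+PFD, 67, 35.1 and 57.1 with RIC+DE and 34.2, 33.8 and 38.7 with DE+RIC. Dnah5 stood at 7.84, 29.6 and 24.8 CPM with RIC+DE+PFD and 42.4, 69.4 and 33.3 with DE+PFD+RIC. Dnah5 spanned 7.84 to 69.4 CPM, and in each of C, RIC and DE+PFD the March library was the highest of the 3. The other outer arm heavy chains, Dnah9 and Dnah11, ran from 7.2 to 52 CPM and from 5.27 to 32.8 CPM, each with the same lowest and highest library as Dnah5.

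Of the inner arm heavy chains, Dnah6 and Dnah12 are motors of the single-headed inner arms. Dnah6 measured 60.3, 34.8 and 45.3 CPM in the C libraries, 67.2, 40.5 and 41.9 in the RIC libraries and 36.4, 56.1 and 46.9 with exhaust alone (DE). With 1 treatment added, Dnah6 measured 76.6, 48.4 and 53.3 CPM with DE+PFD, 79.8, 55.4 and 72.9 with RIC+DE and 49, 55.9 and 52 with DE+RIC. Dnah6 measured 16.3, 48.6 and 46.5 CPM with RIC+DE+PFD and 46.8, 105 and 47.6 with DE+PFD+RIC. RIC+DE 2 lay just below DE 2, so these groups overlapped in Dnah6. Dnah12 read 35.7, 23.6 and 26.3 CPM in the C libraries, 42.2, 24 and 19.2 in the RIC libraries and 19.5, 26.3 and 14.2 with exhaust alone (DE). For singly treated lungs Dnah12 read 30, 30.5 and 23.6 CPM with DE+PFD, 60.8, 29.3 and 42.5 with RIC+DE and 24.7, 22.6 and 26.3 with DE+RIC. Dnah12 read 8.61, 17.8 and 22.6 CPM with RIC+DE+PFD and 16.8, 52 and 33.6 with DE+PFD+RIC. All 3 RIC+DE values of Dnah12 were above all 3 DE values, and RIC+DE+PFD 1 was the lowest library. Mean levels were 44.2 ± 15.9 CPM in RIC+DE and 20.0 ± 6.03 CPM in DE (SD, n = 3). Over the 7 inner arm genes the ratio of highest to lowest library went from 2.2 for Dnah7a to 7.07 for Dnah12.

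In the radial spokes, Rsph1 and Rsph9 belong to the head that touches the central apparatus. Rsph1 stood at 45.4, 32.3 and 41.8 CPM in the C libraries, 36.8, 32.1 and 37.5 in the RIC libraries and 33, 66.1 and 45.5 with exhaust alone (DE). Under 1 treatment Rsph1 stood at 44.9, 42 and 55.9 CPM with DE+PFD, 31.3, 30.7 and 33.6 with RIC+DE and 51.4, 62.2 and 54 with DE+RIC. Rsph1 stood at 81.6, 44.8 and 37.6 CPM with RIC+DE+PFD and 41.4, 40 and 33 with DE+PFD+RIC. The 3 RIC+DE values of Rsph1 were the most alike of any group, at 31.9 ± 1.56 CPM, and overlapped the lowest DE value. Rsph9 measured 24.4, 20.3 and 23.2 CPM in the C libraries, 18.8, 19 and 21.5 in the RIC libraries and 17.7, 24 and 22.1 with exhaust alone (DE). In the groups with 1 added treatment Rsph9 measured 22.5, 24.6 and 28.2 CPM with DE+PFD, 18, 18.5 and 20.6 with RIC+DE and 28.9, 20.5 and 24.6 with DE+RIC. Rsph9 measured 63.9, 29.3 and 24.6 CPM with RIC+DE+PFD and 21.4, 19.9 and 19.7 with DE+PFD+RIC. Rsph9 was highest in RIC+DE+PFD 1, and the other 2 libraries of that group were also above every DE value. Rsph4a, the third spoke head gene, ran the other way, from 4.24 CPM in RIC+DE+PFD 1 to 31.1 CPM in DE+PFD 1.

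In the central apparatus, Cfap65 is a large protein of the central pair's projections and Spag6l, the mouse gene of the Spag6 family used by airway cilia, sits in the same structure. Cfap65 read 41.7, 53.7 and 62.9 CPM in the C libraries, 91, 49.5 and 55.2 in the RIC libraries and 35.6, 41.5 and 41.7 with exhaust alone (DE). With 1 treatment added, Cfap65 read 51.2, 58.6 and 42.3 CPM with DE+PFD, 103, 69.5 and 81.1 with RIC+DE and 48.7, 57 and 54.5 with DE+RIC. Cfap65 read 12.5, 73.9 and 58.6 CPM with RIC+DE+PFD and 32.5, 105 and 67.5 with DE+PFD+RIC. C 1 and DE 3 were equal to 3 digits in Cfap65, and the other 2 C values were above every DE value. All 3 RIC+DE values of Cfap65 were above every C and DE value. Spag6l stood at 19.3, 16 and 15.4 CPM in the C libraries, 19.4, 13.9 and 12.1 in the RIC libraries and 11.3, 20.9 and 12.5 with exhaust alone (DE). For singly treated lungs Spag6l stood at 23.6, 18.5 and 18.2 CPM with DE+PFD, 19.7, 13.6 and 19.2 with RIC+DE and 16.2, 15.9 and 19.6 with DE+RIC. Spag6l stood at 18.8, 17 and 14.8 CPM with RIC+DE+PFD and 17.4, 22 and 13.7 with DE+PFD+RIC. Spag6l varied little, from 11.3 CPM in DE 1 to 23.6 CPM in DE+PFD 1. The other 7 members of the group, Hydin, Spag16, Spag17, Cfap46, Cfap54, Cfap69 and Cfap70, had highest-to-lowest ratios between 3.08 and 6.53.

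Among rulers, links and docking proteins, Ccdc153 and Ccdc113 are coiled-coil proteins, and Cfap44 is added as the member of widest range, chosen after its values were seen. Ccdc153 measured 113, 104 and 120 CPM in the C libraries, 100, 101 and 100 in the RIC libraries and 78.3, 156 and 105 with exhaust alone (DE). Under 1 treatment Ccdc153 measured 109, 104 and 144 CPM with DE+PFD, 76.8, 79 and 104 with RIC+DE and 144, 134 and 124 with DE+RIC. Ccdc153 measured 236, 116 and 129 CPM with RIC+DE+PFD and 125, 84 and 93.2 with DE+PFD+RIC. RIC values of Ccdc153 were nearly identical and below every C value, while RIC+DE+PFD 1 was the highest library. Ccdc113 read 22.2, 18.4 and 25.5 CPM in the C libraries, 20.3, 19.6 and 20.7 in the RIC libraries and 15.3, 28.4 and 16.7 with exhaust alone (DE). In the groups with 1 added treatment Ccdc113 read 26.1, 21.1 and 26.9 CPM with DE+PFD, 18, 14.9 and 19.4 with RIC+DE and 24.2, 25.6 and 20.9 with DE+RIC. Ccdc113 read 38.4, 21.6 and 21.8 CPM with RIC+DE+PFD and 22.8, 19 and 16.6 with DE+PFD+RIC. For Ccdc113 the highest library was again RIC+DE+PFD 1, and the groups overlapped. Cfap44 stood at 25.5, 10 and 12.3 CPM in the C libraries, 32.9, 9.64 and 9.85 in the RIC libraries and 5.26, 12.8 and 11.3 with exhaust alone (DE). With 1 treatment added, Cfap44 stood at 38.5, 17.1 and 15.2 CPM with DE+PFD, 50.7, 28.3 and 41.7 with RIC+DE and 14.3, 12.6 and 16.5 with DE+RIC. Cfap44 stood at 8.87, 21.6 and 19 CPM with RIC+DE+PFD and 15.3, 59.3 and 26 with DE+PFD+RIC. The highest library of Cfap44 was 11.3 times the lowest. All values of DE+PFD, RIC+DE and DE+PFD+RIC were above those of DE, at group means of 23.6 ± 12.9, 40.2 ± 11.2, 33.5 ± 23.0 and 9.78 ± 4.0 CPM (SD, n = 3). Ccdc39 and Ccdc40, the pair that sets the repeat length of the axoneme, ran from 6.57 to 42.5 CPM and from 8.22 to 45.1 CPM.

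Inside the doublet microtubules, Tekt1 is a tektin, a filament protein of their wall, and Cfap126 is the Flattop protein named above. Cfap126 measured 40.9, 26.2 and 36.7 CPM in the C libraries, 27.4, 40.8 and 32.6 in the RIC libraries and 32.2, 51.4 and 37.1 with exhaust alone (DE). For singly treated lungs Cfap126 measured 36.5, 30.5 and 53.7 CPM with DE+PFD, 24.8, 21.6 and 28.4 with RIC+DE and 41.4, 50.3 and 31.9 with DE+RIC. Cfap126 measured 112, 34.3 and 32.4 CPM with RIC+DE+PFD and 35.5, 24.3 and 25.1 with DE+PFD+RIC. The 3 RIC+DE values of Cfap126 were below all 3 DE values, and RIC+DE+PFD 1 was far above every other library. Tekt1 read 24.8, 17.6 and 23.4 CPM in the C libraries, 26.2, 20.9 and 22.7 in the RIC libraries and 17.2, 30.6 and 20.6 with exhaust alone (DE). Under 1 treatment Tekt1 read 28.2, 23.3 and 29.7 CPM with DE+PFD, 17.8, 20.1 and 22 with RIC+DE and 24.3, 24 and 21.4 with DE+RIC. Tekt1 read 36.4, 22.5 and 24.3 CPM with RIC+DE+PFD and 23.1, 24 and 19.1 with DE+PFD+RIC. Tekt1 had its lowest value in DE 1 and its highest in RIC+DE+PFD 1, and DE and C overlapped. Cfap45, Cfap52, Cfap53 and Tekt4, the rest of this role, had highest-to-lowest ratios between 2.01 and 3.42.

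The other ciliated cell genes include the most abundant transcripts of the set. Tppp3 stood at 420, 586 and 632 CPM in the C libraries, 471, 604 and 609 in the RIC libraries and 546, 738 and 665 with exhaust alone (DE). In the groups with 1 added treatment Tppp3 stood at 415, 743 and 778 CPM with DE+PFD, 309, 361 and 434 with RIC+DE and 754, 719 and 609 with DE+RIC. Tppp3 stood at 1974.1, 594 and 592 CPM with RIC+DE+PFD and 761, 384 and 437 with DE+PFD+RIC. Tppp3 was below all DE values in all 3 RIC+DE libraries, at 368 ± 62.5 against 650 ± 96.6 CPM (SD, n = 3). Its 6 lowest values were in March libraries and so was its highest, in RIC+DE+PFD 1. Dynlrb2 measured 46.7, 33.6 and 49.5 CPM in the C libraries, 36.5, 44.9 and 42.9 in the RIC libraries and 34.2, 63 and 39.4 with exhaust alone (DE). With 1 treatment added, Dynlrb2 measured 38.7, 48.4 and 59.9 CPM with DE+PFD, 28.5, 29.3 and 38.2 with RIC+DE and 48.5, 69.6 and 43.4 with DE+RIC. Dynlrb2 measured 142, 42.3 and 50.2 CPM with RIC+DE+PFD and 42.5, 35 and 33.9 with DE+PFD+RIC. For Dynlrb2 RIC+DE 3 and DE 1 overlapped, and RIC+DE+PFD 1 was again the highest library. Sntn, a protein of the ciliary tip, and Tmem212 shared that highest library, at 33.8 and 139 CPM, while Ak7, an adenylate kinase of the axoneme, was lowest in it, at 12.1 CPM.

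**Figure D3:**
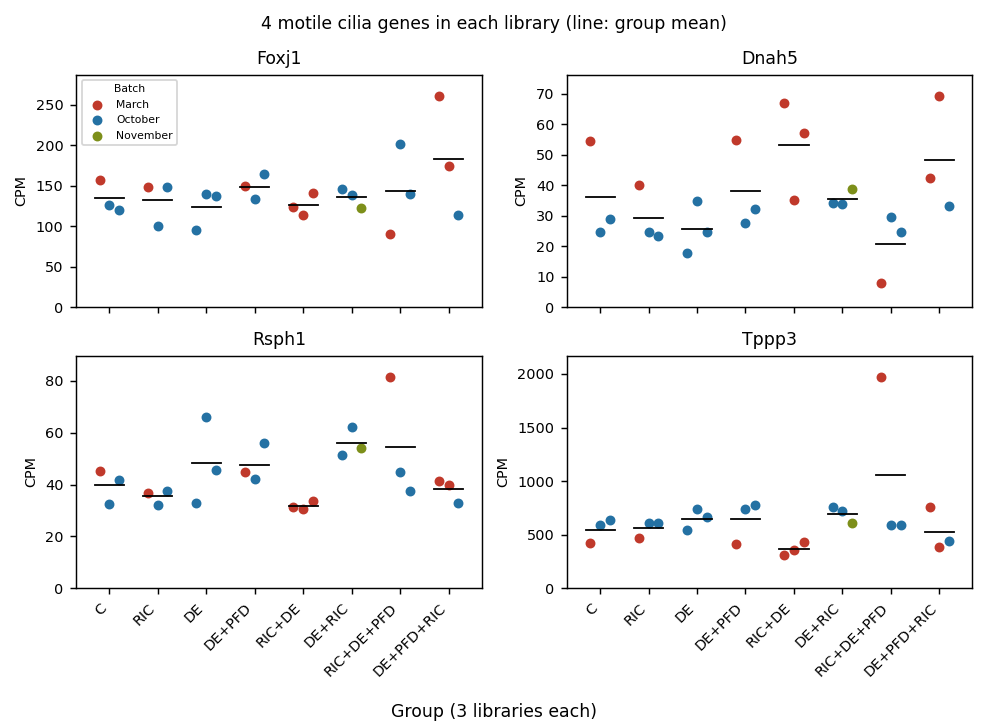
CPM of Foxj1, Dnah5, Rsph1 and Tppp3 in each of the 24 libraries, by group, coloured by batch date, with the group mean as a line. In RIC+DE+PFD 1 Dnah5 is at its lowest, 7.84 CPM, and Rsph1 and Tppp3 at their highest, 81.6 and 1974.1 CPM.

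Long and short members moved in opposite directions in several libraries. The 10 dynein heavy chain genes have at least 12 kb of exon, 10 members have less than 2 kb (Rsph1, Rsph9, Ccdc113, Cfap126, Tekt1, Tekt4, Tppp3, Dynlrb2, Sntn and Tmem212), and 28 are of other lengths or kinds. In RIC+DE+PFD 1 the heavy chains were at -1.36 and the short members at 1.29 on the list level scale. 9 of the 10 heavy chains had their lowest value there, and 10 of the 10 short members their highest. All genes of at least 12 kb were at -1.07 in that library and all genes of 0.5 to 2 kb at 0.77, so the direction was not particular to cilia genes.

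The opposite arrangement was seen in DE+PFD+RIC 2, where heavy chains exceeded short members by 1.20 and 8 of the 10 heavy chains were at their highest. In RIC+DE the gap was 1.1, 0.68 and 0.79, in RIC 1 it was 0.60, and in the 3 DE libraries it was -0.15, -0.48 and -0.30. Heavy chains were above short members in 7 of 9 March libraries and 4 of 14 October libraries.

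The same division by length appeared in the fitted differences. In RIC+DE minus DE the heavy chains had a median of 0.56 (10 of 10 above 0) and the short members -0.60 (0 of 10), beside 0.43 over all 823 tested genes at least as long as Dnah12, the shortest of the heavy chains, and -0.53 over all 3149 tested genes under 2 kb. In DE+PFD+RIC minus DE the values were 0.58 (10 of 10) and -0.37 (0 of 10), beside 0.33 and -0.40 over all genes of those lengths. DE+PFD minus DE gave 0.34 (10 of 10) and 0.03 (6 of 10), beside 0.17 and -0.16. DE+RIC minus DE gave 0.26 and 0.23, with all 10 of each above 0, beside 0.07 and -0.05. In DE minus C the heavy chains had a median of -0.25 and the short members 0.17, beside -0.14 and 0.20.

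**Figure D4:**
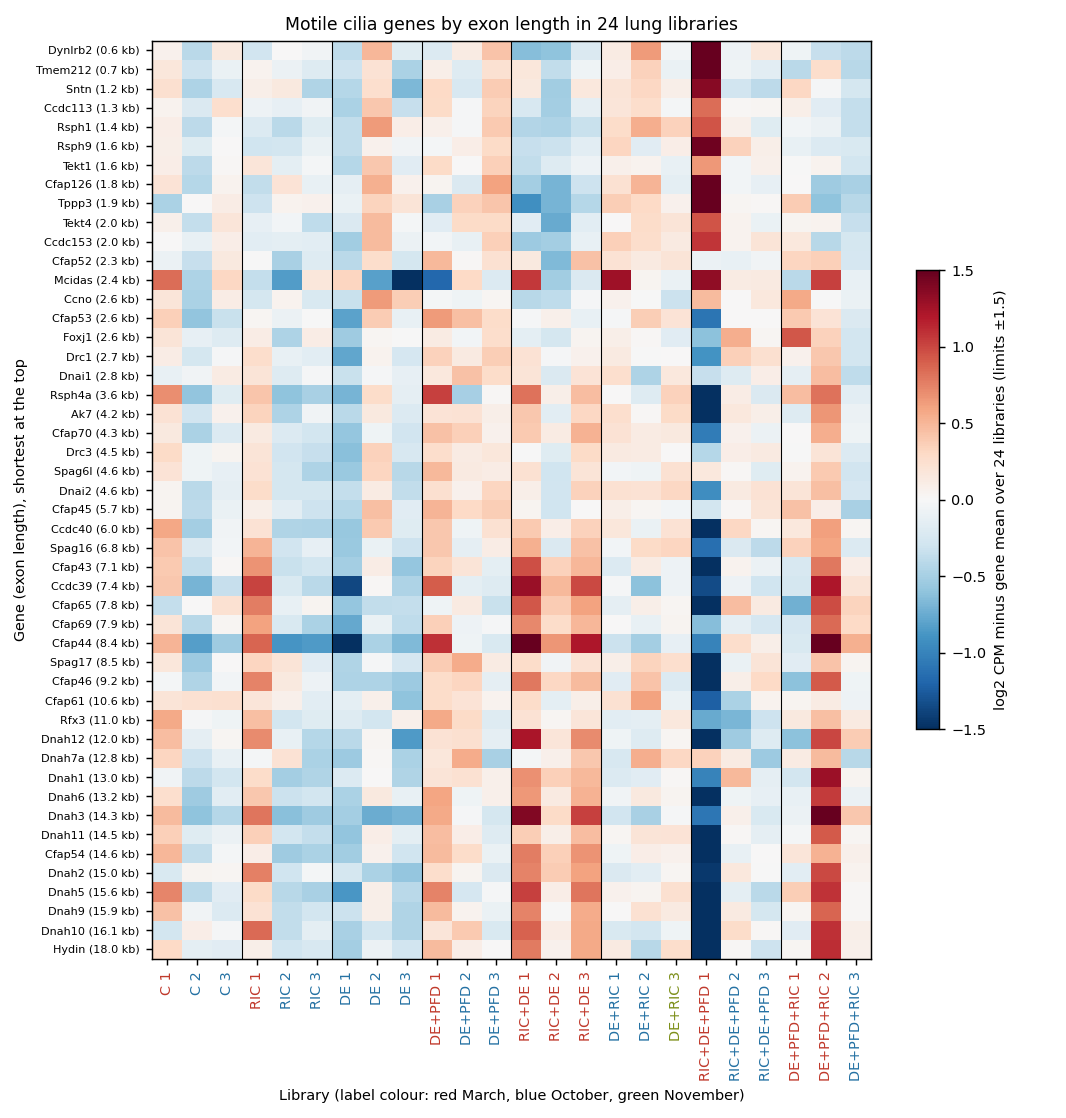
Deviation of log2 CPM from each gene's mean for the 48 genes (rows, shortest exon length at the top) in 24 libraries (columns, label colours for batch date), red above and blue below the mean, with colours limited at 1.5. RIC+DE+PFD 1 is red at the top and blue at the bottom, and DE 1 is mostly blue.

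Across the 24 libraries most of the genes varied together, as the correlations below describe; the points share libraries, depth and the length trend, so no test is attached. The correlation of each gene's log2 CPM with the mean of the other 47 had a median of 0.73. It was highest for Cfap70, at 0.92, and lowest for Tppp3, at -0.59, and 10 genes were below 0. Among pairs, heavy chains with heavy chains had a median r of 0.83, short members with short members 0.77 and heavy chains with short members -0.40. Without RIC+DE+PFD 1 these were 0.78, 0.60 and -0.09, and 2 genes were below 0. With each library's length trend over all genes removed they were 0.57, 0.53 and 0.34 in 24 libraries, and 1 gene, Tppp3 at -0.38, was below 0. Across the 48 genes, which are not independent, Spearman's rho between exon length and this correlation was 0.632.

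**Figure D5:**
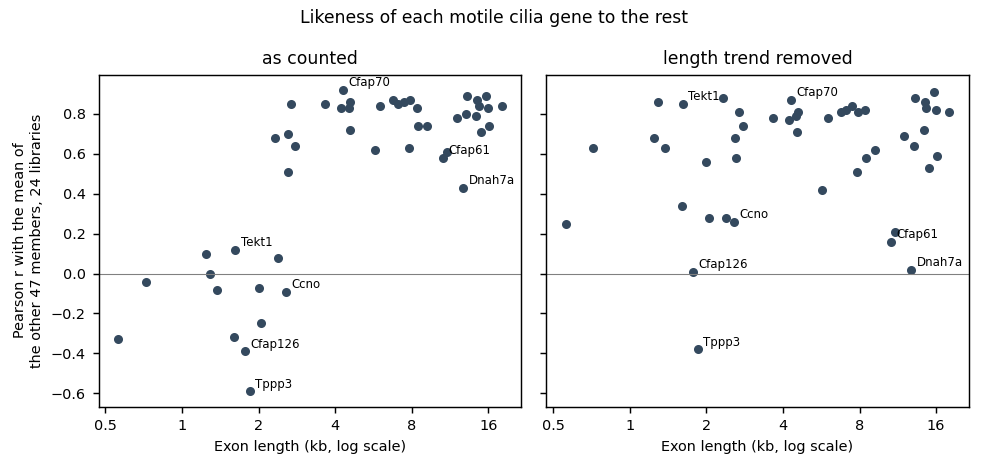
Pearson r of each motile cilia gene with the mean of the other 47 over 24 libraries against exon length (log scale), as counted (left) and after each library's trend with exon length over all genes was removed (right). On the left 10 genes are below 0, on the right 1, Tppp3.

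The genes outside the list whose log2 CPM correlated best with the mean of the 48 were Cdhr3 (r = 0.95), a cadherin of ciliated cells, Cep126 (0.94) and Wdr78 (0.94), the latter a dynein intermediate chain, followed by Iqub, Cyp2s1 and Cfap91 (0.91 each), Erich3 (0.90), and Dusp18, Dync2h1 and the ubiquitin ligase gene March4 (0.89 each), over 24 libraries. Cfap91 belongs to the list of other axoneme genes, Dync2h1 (r = 0.47 once the length trend was removed) to that of intraflagellar transport and Cyp2s1 to that of secretory cells.

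Ciliary genes outside the 48 had no calls either. Of 58 further axoneme and dynein assembly genes 57 were matched and 54 tested, and 0 passed in any comparison. Their median was -0.02 in DE minus C, 0.20 in DE+PFD minus DE, 0.00 in RIC+DE minus DE, 0.28 in DE+RIC minus DE, 0.13 in RIC+DE+PFD minus DE and 0.07 in DE+PFD+RIC minus DE. In DE+RIC 50 of the 54 lay above 0, and in DE+PFD 46 did. The 16 genes of multiciliogenesis and centriole amplification and the 30 of intraflagellar transport and the ciliary base also had 0 calls in every comparison. Their medians were 0.28 and 0.05 in DE+PFD minus DE and 0.06 and 0.10 in DE+RIC minus DE.

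Batch date also went with the level of the genes. In October minus March, fitted beside group, 45 of 48 genes lay below 0 with a median of -0.22, where the all-gene median was -0.02. With all 24 libraries edgeR called 0 members, 0.00572% of genes higher and 0% lower. 9 members had an unadjusted p under 0.05, all of them below 0, among 14.8% of all genes. That number was 4 without C 1 and 26 without RIC+DE+PFD 1, fits whose share of all genes at that p is not given. Without RIC+DE+PFD 1, 15 members fell in October and 0 rose, where 8.56% of all genes were called lower, 4.61% higher and 13.2% in all. The 15 were Rfx3, Dnah3, Dnah5, Dnah6, Dnah9, Dnah11, Rsph4a, Spag6l, Spag16, Cfap54, Cfap70, Ccdc39, Ccdc40, Cfap43 and Cfap44. The shortest of them is Rsph4a, with 3.65 kb of exon, and none of the 10 members under 2 kb was called. The shares of all genes are not split by exon length, so the part of length in these calls was not tested. Rsph4a had a log2 fold change of -1.04 ± 0.17 (adjusted p = 0.00231), Cfap44 of -1.19 ± 0.27 (adjusted p = 0.00979) and Dnah5 of -0.87 ± 0.17 (adjusted p = 0.00535) by edgeR.

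The count depended on the method. All libraries with no filter gave 6 members against 0.767% of the unfiltered genes, those with low counts included. Removing the length trend gave 1, Tmem212, against 0.949% of the filtered genes. The limma voom method, which weights libraries by quality, gave 19 members against 18.9% of genes, Tppp3 being the 1 higher in October, and leaving out RIC+DE+PFD 1, DE 1 and RIC+DE 1 gave 18 against 15.3%. Batch dates are uneven over the groups, so in RIC+DE minus DE group and batch cannot be told apart without the other groups.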

How the data were processed

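The deposited counts per gene were made by the authors with FastQC 0.12.1, fastp 0.23.4, STAR 2.7.11b and featureCounts on GRCm39, per the submitters' processing notes, which also name R 4.4.1 and DESeq2. Which annotation release and strand setting they used is not stated in these sources, so reads of overlapping antisense genes cannot be told apart with certainty. Symbols and exon lengths came from a GRCm38 annotation, where 51486 of 78275 genes had a symbol and held 98.45% of counts.

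Counts were fitted in R 4.3.3 with edgeR 4.0.16 (TMM, filterByExpr, quasi-likelihood test, terms for batch and group, all 24 libraries, Benjamini-Hochberg over 17490 genes). The code was tested on simulated data. Alternatives used DESeq2 1.42.0, limma 3.58.1, other filters, a length correction, single batches and each library left out. For correlations and levels, log2 CPM took a prior count of 2.

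Total counts per library, 3906807 to 18494156, limit the precision of low genes. No 2 libraries of a group were alike within sampling noise (chi-square per gene 6.72 to 272). Genes named are the highest per kb in each role and the 3 with the smallest p per comparison. The 48 members and all gene lists were chosen with earlier results of these data known.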

Additional observations from a re-analysis of the deposited data

How the results depend on the processing

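Of the member medians, 395 values under other settings moved by less than the spread between libraries (SD 0.25) and 4 moved further. Most of the medians were themselves smaller than 0.25. A change of sign could thus count among the 395, as in DE minus C without DE 1. Of the counts of members past the threshold, 425 kept the count and 9 were higher. For RIC+DE minus DE the count was 6 with no filter on low counts, and the median was -0.21 without RIC+DE+PFD 1, DE 1 and RIC+DE 1, a choice made after seeing the data. For DE+PFD+RIC minus DE the count was 3 with no filter, and the median was 0.02 in October alone, 0.03 with only the 2 groups fitted and 0.01 without those 3 libraries. For October minus March the count was 6 with no filter, 1 with the length trend removed, 19 with voom weights and 18 without those 3 libraries, and it ranged from 0 to 15 when each library was left out in turn. For all groups it was 2 by DESeq2 and 10 with no filter. Tmem212 in RIC+DE+PFD minus DE was -0.03 without the 3 libraries, and Tppp3 for pirfenidone was -0.11 with voom weights and -0.02 without them. The cause of these differences was not tested. Leaving out 1 library at a time, the median ranged from -0.31 to 0.04 in DE minus C and from -0.15 to 0.22 in RIC+DE+PFD minus DE.

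Of 84 same-numbered pairs of libraries, 16 correlated above 0.1 (r from -0.389 to 0.412). Differently numbered pairs were not set beside them, so whether the replicate numbers pair the libraries was not tested. With a replicate block the count of members was 0 in every comparison, and the median was -0.07 in DE minus C and 0.28 in DE+PFD minus DE. Over all 17490 genes the block gave 0 calls in those 2 comparisons. In RIC+DE minus DE it gave 16 with the batch term and 30 without it. RIC+DE minus DE was not run on its 2 groups alone or in October alone, since batch and group coincide there, and March alone was run for RIC minus C only.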

Other observations

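With the length trend and RIC+DE+PFD 1 taken out, a choice made after the values were seen, the genes most like the mean of the 48 were Cdhr3, Cep126, Cfap206, Nme9, Dnali1, Wdr78, Nme5, Cfap91, March4 and Enkur. Cdhr3 had r = 0.94 and Cfap206, a protein at the spoke base, r = 0.93 over the remaining libraries. Nme5, a short axonemal gene of 1.15 kb of exon, went from r = 0.08 over 24 libraries as counted to 0.90. Of the 100 genes most alike among 13436, the list of other axoneme genes held 9 as counted and 20 after both steps, of 52 ranked.

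In RIC+DE+PFD 1 the other axoneme genes were split by length as well, the 11 of at least 5 kb at -1.04 and the 19 under 2 kb at 0.87 log2 units from their means. These genes are not among the 48.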
